A study of Mus musculus with 32 samples.

Results

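The endosomal sorting genes described here are Tom1, Tom1l2, Snx17, Snx27, Bin1, Vps35, Vps26a, Vps29, Hgs and Stam, 10 genes of the 18138 gene symbols on the array, found by their symbol in the deposited table. Of these, 9 had at least 1 probe, 19 probes in all, and Snx27 had none under its symbol. Tom1, Snx17 and Bin1 were chosen by their ethanol difference on these same arrays, so the ethanol differences of all the members are given as a description, with standard errors and without p-values. Frontal cortex (FCtx) RNA of 32 female mice, labelled as the strain C57BL/6J x FVB/NJ F1 (the Methods name both directions of the cross), was hybridized to 1 Illumina MouseRef-8 v2.0 array per mouse. Ethanol was drunk by choice: for 20 days the 20 ethanol-treated mice had a bottle of 20% ethanol beside a bottle of water for 3 h, and sacrifice followed their final session by 20 h in the Methods and by 24 h in the Discussion. The 12 controls are labelled only as control mice, and their drinking procedure is not given in the sources used here. The ethanol-treated mice are described as young adults, without an age in weeks. Chips 1 and 2 held 8 ethanol-treated mice each, chip 4 held 8 controls, and chip 3 alternated 4 ethanol-treated mice with 4 controls, ethanol at its odd positions (from A to G) and controls at its even ones (from B to H).

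Membrane proteins that enter a cell by endocytosis are sorted on early endosomes, either back to the surface or the Golgi, or into the lumen of the endosome for breakdown in lysosomes. Retromer, whose core is made of Vps35, Vps29 and a Vps26 subunit, carries cargo along the recycling routes, and the sorting nexins Snx17 and Snx27 bind the tails of receptors that are to be recycled. Hgs and Stam form the complex that first binds ubiquitylated cargo for breakdown, Tom1 and Tom1l2 are adaptors with the same kind of ubiquitin-binding VHS domain, and Bin1 is an amphiphysin that bends membranes during endocytosis. In neurons these routes set how many receptors stay at the synapse, and Bin1 and Vps35 are known from the genetics of Alzheimer and Parkinson disease.

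Each probe of the array is an oligonucleotide of 50 bases, and a start base is stated with every probe because probes of the same gene differed. The table gives this start as a bare number, which was taken here as the place in the transcript counted from the 5′ end, an assumption on which every statement on 5′ and 3′ probes rests. The starts of the Bin1 probes belong to 3 different transcript records, so their distances are approximate. The sequences below come from the probe annotation in the deposited table. Only some of the member probes are shown, and none of Bin1 or Hgs. The Tom1 probe (chromosome 8) starts at base 61, and the capitals mark an ATG triplet in it. The first Snx17 probe (chromosome 5) starts at base 181. The second Snx17 probe starts at base 1890, and 30 bases of it are shown, with the hexamer ATTAAA in capitals, a known variant of the polyadenylation signal AATAAA. The Vps35 probe (chromosome 8) starts at base 2396.
Tom1, base 61: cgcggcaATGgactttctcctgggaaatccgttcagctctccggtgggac
Snx17, base 181: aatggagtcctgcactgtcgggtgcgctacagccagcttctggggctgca
Snx17, base 1890 (part): cagctccccatcATTAAActcagcctgatt
Vps35, base 2396: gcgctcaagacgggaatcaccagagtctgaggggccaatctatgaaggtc
Either AATAAA or ATTAAA, read on the printed strand, occurred in 780 of the 25697 probes of the array (3.04%), so such a probe was uncommon. Stam (chromosome 2) had a pair of probes that share 48 of their 50 bases, in capitals below, offset by 2 bases although their listed starts are 249 and 250.
Stam, base 249: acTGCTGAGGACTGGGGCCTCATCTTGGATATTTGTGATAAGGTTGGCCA
Stam, base 250: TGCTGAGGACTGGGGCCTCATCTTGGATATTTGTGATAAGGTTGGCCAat

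Detection decided which members could be compared. A probe was compared where its detection p-value was below 0.01 on at least 24 of the 32 arrays, which 12 of the 19 member probes met, in 7 genes. The 3 Tom1l2 probes were detected on 0, 1 and 0 arrays, and their median signals of 166, 173 and 155 were near the median signal of all probes of an array (180 in the middle array). The Vps26a probe was detected on 9 arrays, 8 of them from ethanol-treated mice and 1 from a control, so neither gene could be compared. The table also holds a probe under the older symbol Vps26, annotated to the same transcript as Vps26a, which was detected on all 32 arrays and differed between ethanol-treated mice and controls by 0.00 log2 units (standard error 0.04). It is no member by its symbol and enters no count here. The other 3 probes detected on fewer than 24 arrays were a second Hgs probe (15 arrays), the Bin1 probe at base 1732 (23 arrays) and the first of the overlapping Stam probes (12 arrays, against 25 for its neighbour). All values below are variance-stabilized and quantile-normalized signals on the log2 scale, on which levels of different probes cannot be set against each other. Arrays had between 9480 and 11544 probes detected, and control mouse C66 on chip 4 had the lowest number and the lowest median signal. In such bulk tissue, fewer cells of a type and less RNA per cell cannot be told apart.

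Tom1, Snx17 and Bin1 were higher and Hgs was lower in ethanol-treated mice, each by a single probe. Of the 12 member probes compared, 3 were called higher, against 3.65% of the 10187 probes compared on the array, and 1 was called lower, against 4.53%, at a false discovery rate (FDR) below 1% by limma. Counted by gene, 3 of 7 had a probe called higher, against 4.19% of all genes, and 1 had a probe called lower, against 5.6%. These counts include the genes chosen for this very difference, so nothing is read from them. Just outside the threshold lay the Vps29 probe at base 863, with a difference of -0.13, and Vps35, with a difference of 0.20, while Hgs, at -0.22, lay just inside it.

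Tom1, the ubiquitin-binding adaptor, ranged from 8.07 to 8.75 (median 8.33) in the 20 ethanol-treated mice and from 7.69 to 8.31 (median 7.95) in the 12 controls. Every ethanol-treated mouse (20 of 20) exceeded the control median and 10 exceeded the highest control, though the groups overlapped. The difference was 0.38 log2 units (standard error 0.07, 95% interval 0.25 to 0.52), or 1.30-fold. On chip 3, the ethanol-treated mice had values of 8.11, 8.21, 8.43 and 8.07 and the controls 8.03, 7.94, 7.94 and 7.84. These did not overlap, although the lowest ethanol-treated mouse and the highest control differed by little. Tom1 has no other probe on the array, so the arrays measured no other part of its transcript. The paper also lists Tom1 among the altered genes that qPCR bore out, though its Methods name no Tom1 assay.

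Snx17, the sorting nexin that recycles receptors of the LDL receptor family and integrins, gave a different answer by each of its probes. By the probe at base 181, ethanol-treated mice ranged from 8.53 to 9.21 (median 8.84) and controls from 7.94 to 8.75 (median 8.46), and 13 of 20 ethanol-treated mice lay above the highest control. That difference was 0.46 log2 units (standard error 0.07), or 1.37-fold. By the probe at base 1890, ethanol-treated mice ranged from 11.16 to 11.59 (median 11.38) and controls from 11.31 to 11.65 (median 11.41), and the groups overlapped almost wholly. Its difference was -0.04 log2 units (standard error 0.04). The first probe exceeded the second in its ethanol difference by 0.50 log2 units (standard error 0.09). On chip 3, the probe at base 181 read 8.81, 8.72, 8.84 and 8.58 in ethanol-treated mice and 8.75, 8.50, 8.43 and 8.40 in controls, with control mouse C52 above the lower pair of ethanol-treated mice.

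Bin1, the membrane-bending amphiphysin, also split between its probes. By the probe at base 734, ethanol-treated mice ranged from 7.89 to 8.38 (median 8.17) and controls from 7.49 to 8.03 (median 7.90). Of the 20 ethanol-treated mice, 16 lay above the highest control, and the difference was 0.31 log2 units (standard error 0.05), or 1.24-fold. By the probe at base 2173, ethanol-treated mice ranged from 10.65 to 11.32 (median 10.94) and controls from 10.56 to 11.25 (median 11.16), a difference of -0.11 (standard error 0.07). The first probe exceeded the second in its ethanol difference by 0.42 log2 units (standard error 0.09). The probe at base 1732, which was not compared, ranged from 7.29 to 7.69 in ethanol-treated mice and from 7.41 to 8.01 in controls. Tom1, the first Snx17 probe and the first Bin1 probe all had signals nearer to background (medians 332, 469 and 293) than the other called member, Hgs (median 838). With normexp background correction in place of the variance-stabilizing transform, the differences of these 3 probes were 0.70, 0.68 and 0.65 log2 units.

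Hgs, the ubiquitin-binding subunit that starts the sorting of cargo for breakdown, moved the other way. Ethanol-treated mice ranged from 9.28 to 9.96 (median 9.66) and controls from 9.42 to 10.002 (median 9.89), and 19 of the 20 ethanol-treated mice lay below the control median. The difference was -0.22 log2 units (standard error 0.06), or 1.17-fold. On chip 3 the ethanol-treated mice read 9.35, 9.50, 9.55 and 9.69 and the controls 9.74, 9.99, 9.93 and 9.98, without overlap. Stam, its partner, had differences of 0.07 by both of its compared probes (standard errors 0.05 and 0.04), which were 2885 bases apart, and neither was called. The call of Hgs was lost without control mouse C66, although its difference then was still -0.21, and it was also lost with normexp background, with median scaling (difference -0.15) and with all probes of the array compared.

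**Figure D1:**
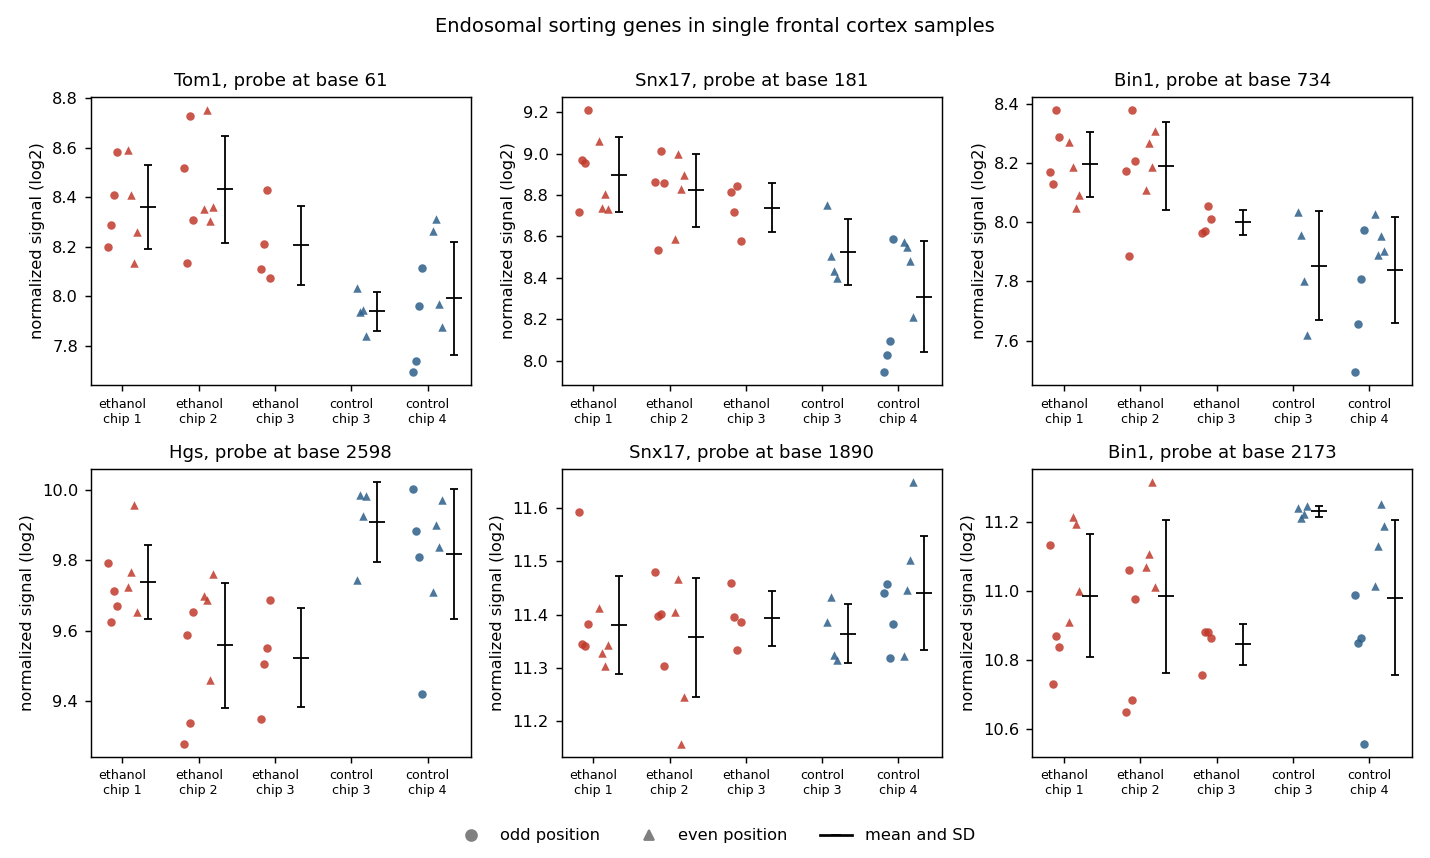
Normalized signal (log2) of each mouse for 6 probes, by group and chip, with circles at odd positions, triangles at even positions and bars for the mean and SD of each set. Tom1, Snx17 at base 181 and Bin1 at base 734 are higher and Hgs is lower in ethanol-treated mice, while Snx17 at base 1890 and Bin1 at base 2173 overlap between the groups.

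The core of retromer was mixed. Vps35, its scaffold, ranged from 10.25 to 10.81 (median 10.58) in ethanol-treated mice and from 9.97 to 10.69 (median 10.35) in controls, a difference of 0.20 (standard error 0.07) that was not called. Vps29 was measured by 3 probes. Their ethanol differences were 0.03 (standard error 0.04) at base 313, -0.07 (standard error 0.04) at base 504 and -0.13 (standard error 0.04) at base 863, and no probe was called at an FDR below 1%. Over all arrays the differences thus fell from the 5′ probe to the 3′ probe of Vps29, as they did between the probes of Snx17 and Bin1. The span of 0.17 log2 units between the outer Vps29 probes was smaller. Within chip 3 the Vps29 differences were -0.07, -0.03 and -0.15 (standard errors 0.08, 0.07 and 0.08), so the probes at bases 313 and 504 did not keep this order. In Stam the outer probes differed by 0.00 log2 units (standard error 0.07). Both Stam probes had signals near background (medians 204 and 227, beside 180 for all probes of the middle array). Their agreement therefore says little about a 5′ to 3′ order.

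Because 3 of the 4 chips held 1 group each, the comparison was then made within chip 3 and between chips 1 and 2 and chip 4. Between chips, 4 member probes were called, against 15% of all probes, all of them higher in ethanol: Snx17 at base 181 by 0.55, Tom1 by 0.40, Bin1 at base 734 by 0.36 and Vps35 by 0.34 log2 units. Hgs differed there by -0.17. Nothing is read from this count, since most of the arrays are those on which genes were chosen. At odd positions alone the differences were 0.73, 0.52, 0.47 and 0.26, and at even positions alone 0.38, 0.29, 0.24 and 0.42, in the same order of probes. The first 3 were thus larger at odd positions and that of Vps35 at even ones, and the gap between odd and even positions was not tested. Within chip 3, no member probe was called by limma, against 0.167% of all probes, with 3 of 12 at an unadjusted p below 0.05. There, the probes of Snx17 (base 181), Tom1 and Bin1 (base 734) had differences of 0.22, 0.27 and 0.15 (standard errors 0.13, 0.12 and 0.10). Hgs differed within chip 3 by -0.39 (standard error 0.10) and Bin1 at base 2173 by -0.38 (standard error 0.12). These 2 probes and Tom1 were the 3 of 12 whose chip 3 groups did not overlap, against 15.2% of all probes. When chip was fitted as a block, which leaves chip 3 to carry the comparison, 0 of the 4 called probes stayed called.

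**Figure D2:**
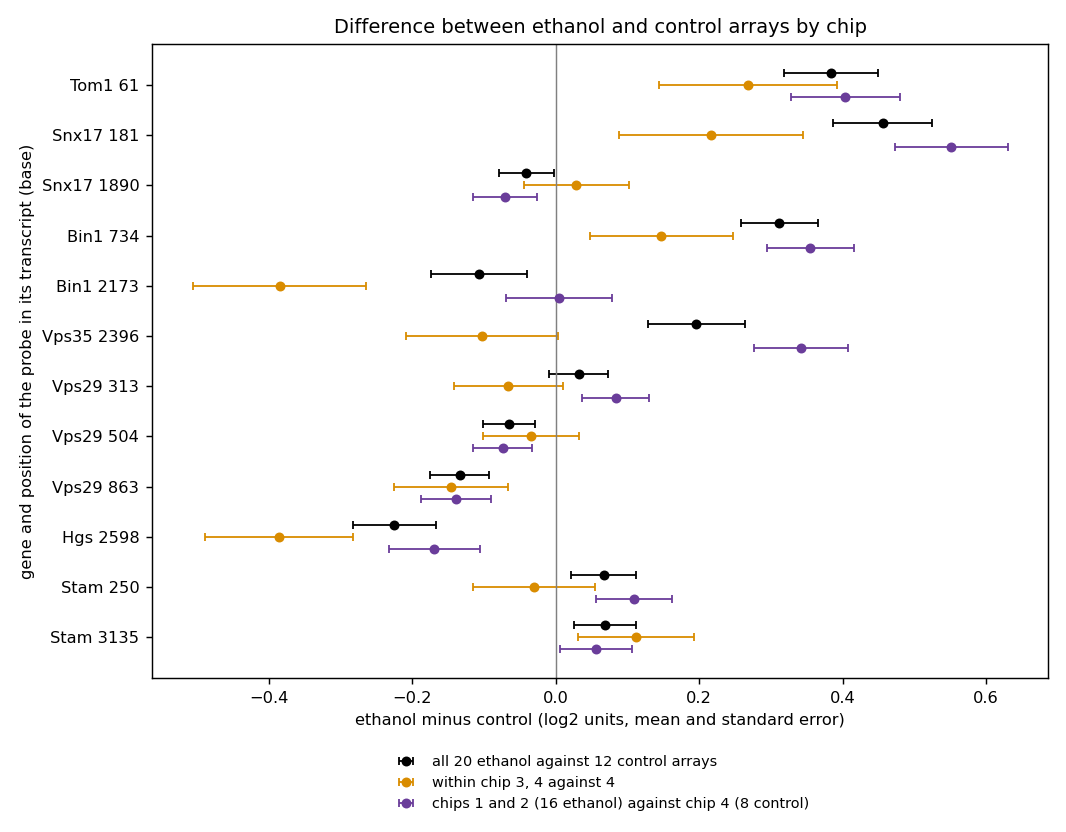
Difference between ethanol and control (log2 units, mean and standard error) of the 12 compared probes over all arrays, within chip 3 and between chips. The differences of Tom1, Snx17 at base 181 and Bin1 at base 734 are above 0 in all 3 comparisons and smaller within chip 3, Hgs is below 0 in all 3, and Vps35 is at 0.34 between chips and -0.10 within chip 3.

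Of the 12 member probes, Vps35 had the largest gap between its differences within and between chips. Within chip 3, ethanol-treated mice read 10.37, 10.63, 10.48 and 10.67 and controls 10.62, 10.58, 10.69 and 10.67. That is a difference of -0.10 (standard error 0.11, 95% interval -0.32 to 0.11). The chip 3 difference less the between-chip difference of 0.34 was -0.44 log2 units (standard error 0.12, 95% interval -0.70 to -0.19, adjusted p = 0.0196 by limma). This missed the 1% threshold but was the smallest adjusted p among the members. For no member probe was this test called by limma, against 3.16% of all probes, with 3 of 12 at an unadjusted p below 0.05. The next was Bin1 at base 2173 with -0.39 (adjusted p = 0.0723). For Tom1, Snx17 at base 181 and Bin1 at base 734 it gave -0.14, -0.34 and -0.21. The 95% intervals were -0.43 to 0.16, -0.64 to -0.03 and -0.44 to 0.03. These genes were chosen by their ethanol difference on these same arrays, most of which enter the between-chip difference. That choice favours a large between-chip difference, and so a negative result here. For these probes the values are therefore a description, and nothing is read from them or from the counts that include them.

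The controls themselves differed in Vps35 by chip. All 4 controls of chip 3, from 10.58 to 10.69, lay above all 8 controls of chip 4, which ranged from 9.97 to 10.39, a difference of 0.43 log2 units (standard error 0.09, adjusted p = 0.00185 by limma). Vps35 was the only 1 of the 12 member probes called between the control sets, against 6.01% of all probes. Restricted to even positions, where all chip 3 controls lay, the difference was 0.37 (adjusted p = 0.0104 by limma). Control differences for Tom1 and Bin1 at base 734 were -0.05 and 0.01, and for Snx17 at base 181 the difference was 0.21 (adjusted p = 0.194 by limma, 95% interval -0.01 to 0.44). Between the 2 chips of ethanol-treated mice, no member probe was called by limma, against 0.167% of all probes, with 2 of 12 at an unadjusted p below 0.05, and the lowest adjusted p was 0.203, for Hgs.

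Position on the chip was also tested, since it alternated with treatment on chip 3 alone. Over chips 1, 2 and 4, with chip as a block, Vps35 was lower at odd than at even positions by 0.23 log2 units (difference -0.23, standard error 0.05, adjusted p = 0.00464 by limma), and so was Bin1 at base 2173 (difference -0.27, standard error 0.06, adjusted p = 0.00471 by limma). They were the 2 of 12 member probes called, against 3.21% of all probes. The direction was the same on each chip, with differences for Vps35 of -0.26, -0.30 and -0.12 and for Bin1 at base 2173 of -0.19, -0.28 and -0.33 on chips 1, 2 and 4. With median scaling these differences were -0.17 and -0.20 and neither was called (adjusted p of 0.411 and 0.337 by limma), and neither was called with normexp background (adjusted p of 0.0105 and 0.0127 by limma). On chip 3, where odd positions held ethanol-treated mice, position and treatment cannot be told apart, and the chip 3 differences of these probes were -0.10 and -0.38.

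**Figure D3:**
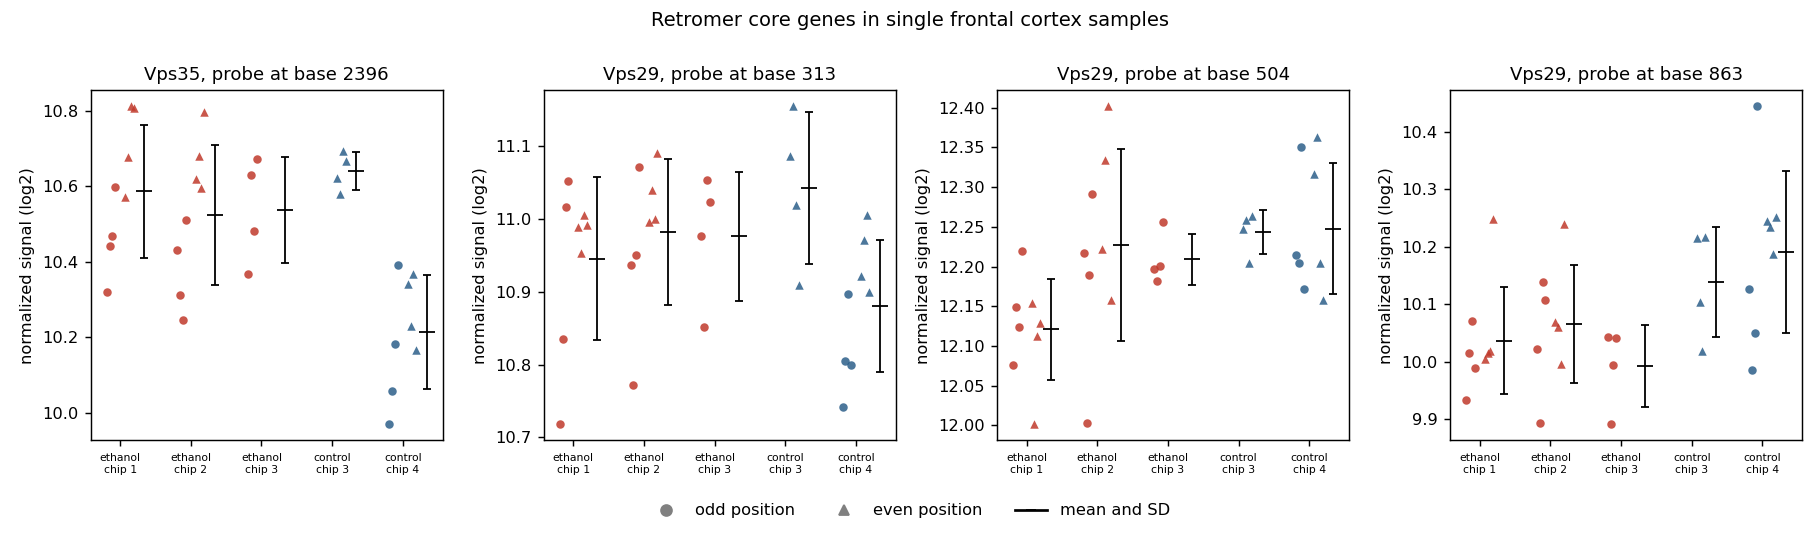
Normalized signal (log2) of each mouse for Vps35 and the 3 probes of Vps29, by group and chip, with circles at odd positions, triangles at even positions and bars for the mean and SD of each set. In Vps35, the controls of chip 4 lie below those of chip 3, and on chips 1 and 2 even positions lie mostly above odd ones.

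The split between 5′ and 3′ probes seen in Snx17 and Bin1 was looked for in other genes. On the array, 559 transcripts that belong to no member had compared probes at least 500 bases apart. In 72.5% of them the 5′ probe had the higher ethanol difference, with a median excess of 0.07 log2 units. The 5′ probes of these pairs were called higher in 78 cases and lower in 4, and the 3′ probes higher in 23 and lower in 17. The excess of Snx17 was reached or passed by 1.43% of these pairs and that of Bin1 by 2.50%. Snx17 and Bin1 were chosen by their ethanol difference on these same arrays, so nothing is read from these shares. The probes of a pair belonged to the same version of a transcript record, which the Bin1 probes at bases 734 and 2173 did not. The 3 member probes called higher are at bases 61, 181 and 734, and the 1 called lower, of Hgs, is at base 2598.

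For each array, the median over these 559 pairs of the 5′ minus the 3′ value, each pair centred over arrays, gives a 5′ minus 3′ score. It ranged from -0.07 to 0.11 (median 0.03) in ethanol-treated mice and from -0.22 to 0.08 (median -0.03) in controls. The low scores came from chip 4, with a mean of -0.15 at its odd positions and -0.03 at its even positions, whereas the controls of chip 3 had a mean of 0.03 and the ethanol-treated mice of chip 3 a mean of 0.01. With values and scores centred within each group and chip, the Pearson correlation with the score over the 32 arrays was 0.80 for Snx17 at base 181, 0.75 for Tom1, 0.81 for Bin1 at base 734 and 0.72 for Vps29 at base 313. It was -0.02 for Snx17 at base 1890, 0.14 for Bin1 at base 2173 and -0.20 for Hgs. These correlations are descriptions, since the arrays of a chip share their processing and the score and the probes come from the same arrays. With the score as a term, the ethanol differences became 0.25 for Tom1, 0.27 for Snx17 at base 181, 0.19 for Bin1 at base 734, 0.04 for Vps35 and -0.21 for Hgs. Between the controls of chips 3 and 4, Tom1 differed by -0.39 once the score was in the fit (adjusted p = 0.00939 by limma) and Vps35 by 0.25 (adjusted p = 0.129 by limma). The part of RNA quality or labelling in the score was not tested.

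**Figure D4:**
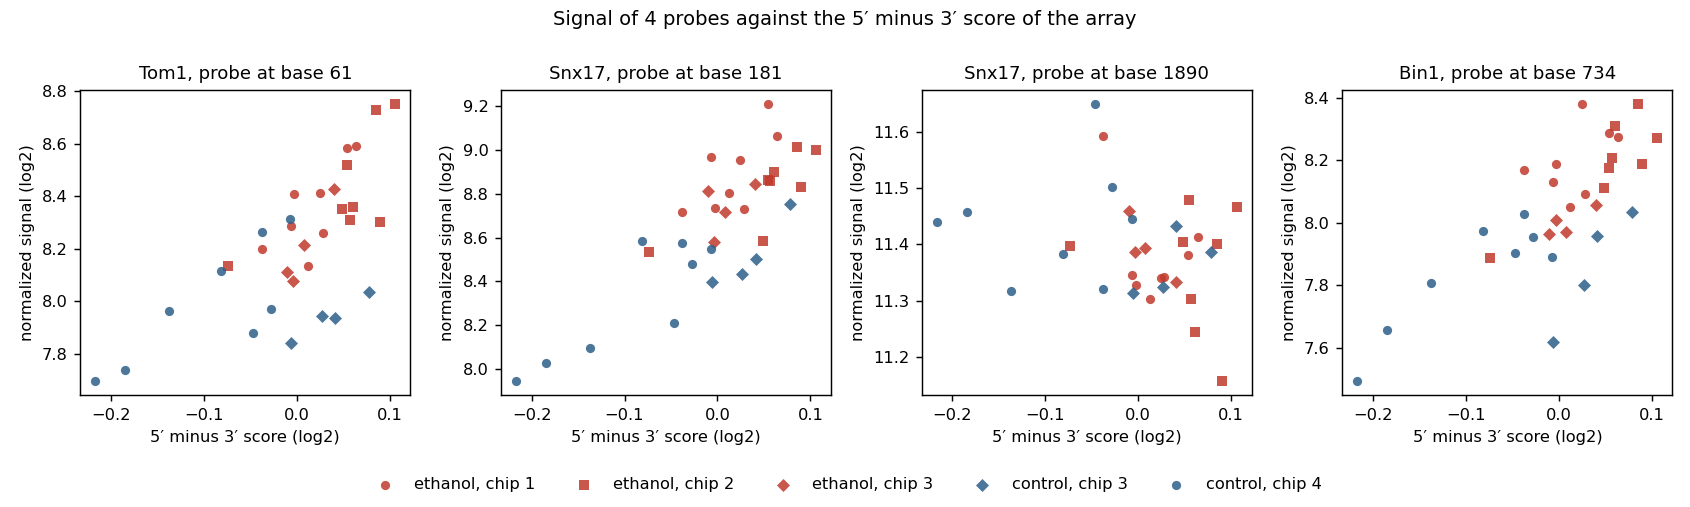
Normalized signal (log2) of 4 probes against the 5′ minus 3′ score (log2) of the array, 1 point per mouse, by group and chip. Tom1, Snx17 at base 181 and Bin1 at base 734 rise with the score in ethanol-treated mice and controls, whereas Snx17 at base 1890 does not, and controls of chip 3 lie below ethanol-treated mice of the same score for Tom1.

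The members were also compared with each other. Centred within each group and chip, Tom1 and Snx17 at base 181 correlated at 0.80 over the 32 arrays, Snx17 at base 181 and Bin1 at base 734 at 0.80, and Tom1 and Bin1 at base 734 at 0.72. Each of these probes also correlated with the 5′ minus 3′ score, as given above, and their likeness apart from the score was not tested. Bin1 at base 2173 and Hgs correlated at 0.64. The genes whose brightest probe was most like Tom1 among 7866 genes were Syt11 (0.83), Arl4c (0.82) and Snrpd3 (0.80). Most like Vps35 were Usp39 (0.81), Capn7 (0.81) and Prkar1b (0.77), and most like Hgs were Myh10 (0.79), Kifc2 (0.78) and Cdc42bpb (0.78). For Bin1 at base 2173 they were 1700021K19Rik (0.80), LOC100048445 (0.75) and Abhd8 (0.75). Likeness was lower for the remaining members. For Snx17 at base 1890 the genes were 4930506M07Rik (0.63), Negr1 (0.62) and LOC100048046 (0.61), for Vps29 at base 504 Ndel1 (0.71), Acad8 (0.63) and Rnf141 (0.62), and for Stam at base 3135 Zfp326 (0.69), Lyrm1 (0.66) and Nudcd3 (0.65).

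Bin1 is also abundant in oligodendrocytes, so the marker list of these cells was set beside it. Each gene of a list was taken by its brightest probe unless another is named. All 10 compared oligodendrocyte genes were lower in ethanol-treated mice within chip 3, with a median of -0.37 log2 units. Bin1 differed there by -0.38 at base 2173 and by 0.15 at base 734. Of the less bright probes, those of Mbp at bases 793 and 4610 differed there by 0.23 and 0.30, and the rest lay below 0. Controls of chip 3 exceeded those of chip 4 in all 10 genes, with a median of 0.25, beside 0.25 for Bin1 at base 2173 and 0.01 at base 734. Odd positions lay below even ones in 8 of 10 genes, with a median of -0.15, beside -0.27 for Bin1 at base 2173 and -0.06 at base 734. None of these genes was called in any of these comparisons by its brightest probe. Over all arrays Mbp was called higher by its probe at base 793 (0.60, adjusted p = 0.00757 by limma), whereas its probes at bases 2211 and 4610 differed by -0.06 and -0.16. The summed level of the list ranged from 21716 to 48366 in ethanol-treated mice and from 19963 to 39563 in controls, and within groups and chips the mean of the list correlated at -0.08 with Bin1 at base 2173, 0.27 with Bin1 at base 734 and 0.41 with Tom1 over the 32 arrays. The part of oligodendrocytes in the Bin1 differences was not tested. Defining markers of FCtx neurons were detected, 6 of 10 neuronal and 5 of 8 cortical layer genes being compared, and 0 of 5 choroid plexus genes were. The mean of 9 compared astrocyte genes correlated within groups and chips at -0.58 with Tom1, -0.60 with Snx17 at base 181 and -0.63 with Bin1 at base 734, and at 0.04 with Bin1 at base 2173. Over all arrays the median ethanol difference of these 9 genes was 0.01, with 4 below 0 and 1 called, Aqp4 (0.56). Of the 6 neuronal genes 4 were above 0, including Gad1 (0.30) and Rbfox3 (0.22), and the 1 called was the excitatory gene Slc17a7 (-0.25). Of the 5 layer genes Slc17a7 and Fezf2 (-0.18) were called, while Bcl11b differed by 0.26. Of the 4 compared genes of the olfactory bulb list, Tbr1 was called lower over all arrays (-0.35) and Th differed by -0.01. Cdhr1 and Doc2g differed by 0.49 and 0.28 over all arrays, without a call. Within chip 3 the differences were -0.54 for Tbr1, 0.16 for Th, 1.53 for Cdhr1 and 0.80 for Doc2g, and none was called. No gene was called among 10 of microglia, 5 of endothelium, 2 of blood and 4 of striatum. The part of these cells in the member differences was not tested.

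Beyond the members, 108 other genes of endosomal sorting in 7 lists were looked up, and 76 of them were compared. Of these, 2 had a probe called higher and 4 a probe called lower, where 4.19% and 5.6% of all genes did, and the median over their brightest probes was -0.01 log2 units, beside 0.00 over all probes compared. Of the partners of retromer and the WASH complex, 0 of 11 were higher and 2 were lower: Snx3, a sorting nexin of retromer (difference -0.22, standard error 0.06, adjusted p = 0.00844 by limma), and Washc1, under its older symbol ORF19 (difference -0.20, standard error 0.04, adjusted p = 0.0021 by limma). Of the ESCRT machinery, which acts after Hgs and Stam, 0 of 20 were higher and 2 were lower: Chmp4b, the subunit that forms the constricting filament (-0.24, adjusted p = 0.00463 by limma), and Vps37d (-0.15, adjusted p = 0.00905 by limma). The other 18 compared genes were not called, the median of the list was 0.00 and 10 of the 20 genes lay below 0.

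Among 5 compared VHS adaptors and Tom1 partners, 1 was higher and 0 were lower. It was Myo6, the motor that binds Tom1 at endosomes (0.15, standard error 0.04, adjusted p = 0.00875 by limma). Tollip, another Tom1 partner, differed by -0.10 at base 3436 and by 0.27 at base 2112, the latter with -0.33 within chip 3 and 0.53 between chips, and neither probe was called. Among 7 compared cargo genes of Snx17 and retromer, 1 was higher and 0 were lower, the very low density lipoprotein receptor Vldlr, whose 3 probes differed by 0.30, 0.19 and 0.16 (adjusted p of 0.00655, 0.0172 and 0.127 by limma). No gene was called among 11 of the Commander complex, with which Snx17 works, 9 BAR domain proteins and dynamins, the relatives and partners of Bin1, or 13 genes of endosomal tethering, with 6, 3 and 10 of them at an unadjusted p below 0.05. With chip as a fixed block or with median scaling, 0 of the 76 genes were called in either direction by limma (21 and 29 at an unadjusted p below 0.05). A gene entered these unadjusted counts if any of its probes passed, which favours genes with several probes. The share over all genes is not given, so nothing is read from the unadjusted counts.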

How the data were processed

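The intensities the authors deposited are mean bead signals of each probe (20 to 62 beads for the member probes), without normalization. Beside them stand the detection p-value of each probe, as deposited by the authors, and other deposited values, namely the spread over beads as a standard error and how many beads were read. The submitters' processing notes name lumi and limma. The software behind the summary and the genome build of the probes are not given in the sources used here, so no genome coordinates are printed. Signals were variance-stabilized from the bead standard errors and quantile-normalized in R 4.3.3. The Methods name both steps with the lumi package, whereas the variance-stabilizing transform used here was written anew. Groups were compared by limma 3.58.1 over the 10187 probes detected (p below 0.01) on 24 or more of the 32 arrays. Benjamini-Hochberg adjustment ran over these probes, and a probe is called at an FDR below 1%. Counts at an unadjusted p below 0.05 stand without their share over all probes or genes, so nothing is read from them. Chip comparisons used 1 fit with a mean for each group and chip. The number of arrays limits precision: the median SD within a group was 0.13 log2 units. Scripts were tested on simulated data.

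The members, the marker and pathway lists and the tests were chosen with earlier results of these data known. The text names every member probe, pathway genes with a called probe, and the 3 genes most like a member's brightest probe. Tollip was named after its values were seen. The labels do not tie arrays to RNA extraction batches, which by the Methods held both groups. Each array is 1 mouse. Alternatives were other transforms, background correction, scaling and filters, array weights, leaving out C66 or each array of chip 3, and chip or position in the fit. The 5′ minus 3′ score, odd or even positions alone and single chips were added after seeing the data.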

Additional observations from a re-analysis of the deposited data

Results flagged for a closer look

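The ethanol difference of Vps35 was 0.34 log2 units between chips and -0.10 within chip 3 (95% interval -0.32 to 0.11). On chip 3 ethanol-treated mice held the odd positions, so position and treatment cannot be told apart there. The chip 3 difference less that between chips 1 and 2 and chip 4 was -0.44 log2 units (adjusted p = 0.0196 by limma), which missed the 1% threshold. Without ethanol-treated mouse A46 the adjusted p was 0.0643, and over the other arrays of chip 3 left out in turn it lay between 0.0189 and 0.0464.

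Of 60 sets of 4 to 8 arrays of the same group and chip, 4 held a single mouse apart from the others by Dixon's test at 95%, a rate that chance gives in about 1 of 20 sets. Ethanol-treated mouse A3 had 11.59 for Snx17 at base 1890, where the next on chip 1 had 11.41. Ethanol-treated mouse A46 had 10.76 for Bin1 at base 2173, where the next on chip 3 had 10.86. Ethanol-treated mouse A21 had 10.25 for Vps29 at base 863, where the next on chip 1 had 10.07. Ethanol-treated mouse A50 had 7.67 for Stam at base 250, where the next on chip 3 had 7.54.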

How the results depend on the processing

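No paired analysis was possible because the groups share no replicate numbers. Over all arrays, 4 member probes and 833 probes of the array were called. Member probes called numbered 0 with chip as a fixed block (17 of the array), 0 with odd or even position added to it (2), 2 with chip as a random block (82) and 2 with the 5′ minus 3′ score (541). With median scaling 122 probes of the array were called, and with an FDR below 10% and at least a 1.1-fold change 1774. Within chip 3, 0 member probes were called (17 of the array). With array weights 1 was called (Hgs, 371 of the array). With chip 3 fitted alone 2 were called (Hgs and Bin1 at base 2173, 333 of the array). Without each array of chip 3 in turn 0 were called (0 to 22 of the array). Between chips, 4 were called (1532 of the array). At odd positions alone 3 were (Tom1, Snx17 at base 181 and Bin1 at base 734, with 309 of the array). At even positions alone 1 was (Vps35, with 262 of the array). For the difference of the 2 differences, array weights gave 1 (Vps35), while calls on the array rose from 322 to 783. Vps35 was the 1 call between control sets (612 of the array) and was lost at even positions alone (0, with 100 of the array). The 2 calls of odd against even position (327 of the array) became 0 with normexp background (207) and 0 with median scaling (0). They became 0 on each of chips 1, 2 and 4 alone (0 of the array on each). With the score 1 stayed (Bin1 at base 2173, with 53 of the array). Of the 2 pathway genes called higher, 1 was called by its brightest probe. With median scaling, 0 were called higher and 0 lower, and with chip as a fixed block 0 and 0. Under median scaling the median difference of all probes was 0.05, against 0.00. No called difference of a member changed sign. Chip 4 held controls alone and chips 1 and 2 ethanol-treated mice alone, so chip and treatment cannot be told apart outside chip 3. These counts include genes chosen by their ethanol difference on these arrays, so a call that stayed supports nothing. The cause of these changes was not tested.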
